A study of Oryza sativa with 6 samples.

Results

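Receptor-like kinases are among the largest gene families of plants. In a typical member, a domain outside the cell binds a ligand and a serine/threonine kinase domain inside the cell passes the signal on by phosphorylation. The leucine-rich repeat (LRR), DUF26 (cysteine-rich) and SD (S-domain, lectin-like) groups are named after their outer domains, whereas the receptor-like cytoplasmic kinases (RLCK) have no such domain and, in Arabidopsis, relay signals from receptor kinases that sense microbes or damage. The 6 rice loci described here were selected on their readout in these same arrays, as receptor-like kinase genes with large changes after ferulic acid. They are Os05g0257100 and Os05g0261700 (LRR-VIII-2, chromosome 5), Os07g0541400 (DUF26-Ic, chromosome 7), Os05g0166300 (SD-2b, chromosome 5), Os03g0407900 (RLCK-VIIa, chromosome 3, annotated as a protein kinase of the APK1B type) and Os08g0374600 (RLCK-OS1, chromosome 8). They are 6 of 29689 loci on the array and 6 of the 822 receptor-like kinase loci found there, and they were measured with 9 of 41889 probes.

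Roots of 6-day-old rice seedlings (Oryza sativa cv. TN-67) were given ferulic acid (FA), a phenolic acid released from decaying rice straw, at 50 ppm, and control seedlings of the same cultivar and age were given water. In FA long exposure the treatment lasted 24 h (3 arrays), and in FA short exposure RNA of 1 and 3 h was pooled before hybridisation (3 arrays), so these times cannot be separated. On every array FA RNA carried the red dye and control RNA the green dye. Each array set 1 biological replicate of FA roots against its water control. Because no dye swap was made, a dye effect of a probe cannot be told apart from an FA effect. The 3 arrays of long exposure were on 1 slide of their own and those of short exposure on 2 others, so slide, scan and exposure cannot be told apart when exposures are compared. The tissue label was checked with the probes of 3 genes known from rice roots (RCc3 and the silicon transporters Lsi1 and Lsi2): their summed processed signal was 170600 to 185400 in FA and 116200 to 144500 in control RNA after long exposure, and 181700 to 289400 in FA and 159700 to 192200 in control RNA after short exposure. The summed signal of 23 probes of 5 photosynthesis genes stayed at 365.6 to 442.1 in FA and 306.6 to 455.6 in control RNA after long exposure, and reached 530.9 to 1007 in FA and 520.5 to 1049 in control RNA after short exposure. The part of these photosynthesis genes' signal in the differences between exposures was not tested.

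Ratios below are log2 (FA/control), so that 1 is a doubling, and signals are processed intensities in arbitrary units, comparable within a probe but not between probes. A locus was called higher or lower at an adjusted p under 0.1 (limma, Benjamini-Hochberg over all tested probes) together with a 2-fold or larger mean change, on its probe with the highest mean signal. After short exposure, 5 of the 6 loci were called higher and 1 lower, beside 7.05% and 2.57% of 19103 tested loci. These values are the kind that chose the loci, so nothing is read from that share. After long exposure, 0 of the 6 were called higher and 1 lower, beside 1.89% and 0.611% of 18666 tested loci. Counted without regard to fold, 4 of 6 had an adjusted p under 0.1 after long exposure, where 57.7% of all tested loci did. An unadjusted p under 0.05 was found at 4 of 6 there, beside 10477 of the 18666 tested loci. The rule that chose the loci names no exposure, so a long-exposure p of a member is a value of the fit across all probes and no independent test. With roots measured in bulk, fewer cells of a type and less RNA per cell cannot be told apart.

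**Figure D1:**
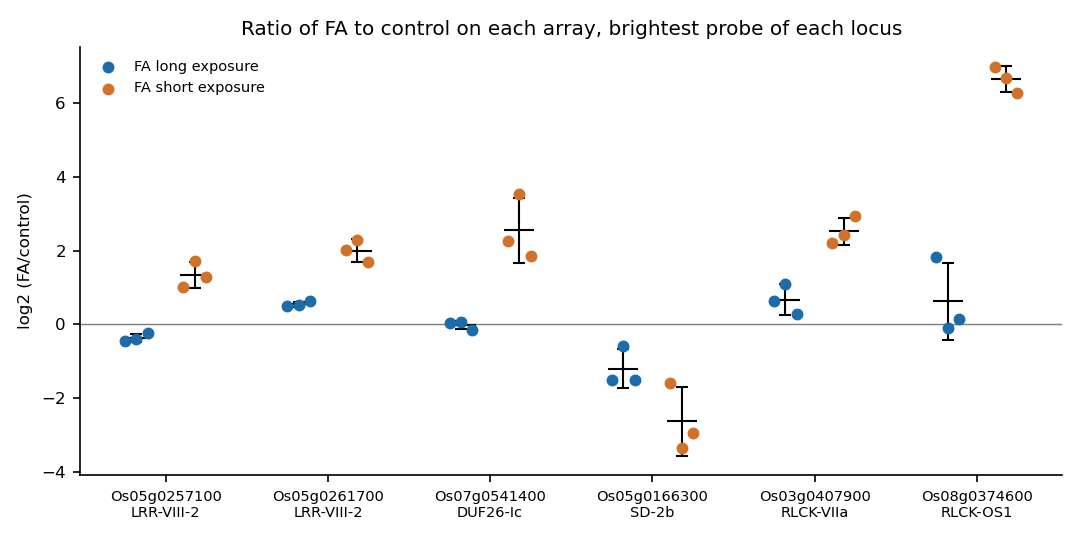
Log2 (FA/control) of the brightest probe of each locus on every array (points), with the mean and SD of 3 arrays (bars), long exposure left of short exposure. In all, 5 loci sit above 1 on every short-exposure array and Os05g0166300 sits below -1 on every one, and for each locus the 3 long-exposure points do not overlap the 3 short-exposure points, as was so for 22% (lower after long exposure) and 30.9% (higher) of 18722 loci.

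Os05g0257100, an LRR-VIII-2 receptor kinase, has 2 probes that gave different pictures after long exposure. The brighter one is labelled 5' UTR and coding sequence in its name, which does not give the stretch that it covers. After long exposure its signal was 117, 127 and 123 in FA roots and 161, 169 and 145 in control roots. With short exposure the values were 541, 559 and 314 in FA roots and 265, 169 and 129 in control roots. The FA signal was thus the lower one on every long-exposure array and the higher one on every short-exposure array. The ratio was -0.46, -0.41 and -0.24 after long exposure (mean -0.37 ± 0.11, SD, n = 3, adjusted p = 0.00818, limma) and 1.03, 1.72 and 1.29 after short exposure (mean 1.35 ± 0.35, SD, n = 3).

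The other probe of Os05g0257100 is labelled coding sequence and 3' UTR and was dimmer. Its signal was 113, 97.5 and 86.2 in FA roots and 30.2, 27.6 and 24.6 in control roots after long exposure. After short exposure it was 96.5, 112 and 101 in FA roots and 26.2, 32.5 and 37.1 in control roots. The FA signal exceeded the control signal on all 6 arrays, and the exposures overlapped. The control signal was well above background on 0 of 3 long-exposure arrays and 1 of 3 short-exposure arrays. The long-exposure ratio, 3.59-fold on average (adjusted p = 0.000458, limma), thus rests on control signals near background and has no exact value. The ratio was 1.90, 1.82 and 1.81 after long exposure and 1.88, 1.78 and 1.45 after short exposure. Between the 2 probes, the mean ratio after long exposure differed by 2.22 on the log2 scale, whereas the median range among 5268 loci with at least 2 tested probes was 0.13 and a range as wide was found at 3 of them (0.0569%), Os05g0257100 included. After short exposure the 2 probes differed by 0.36, a range reached by 17.2% of 5426 such loci. Probes of a locus with adjusted p under 0.1 in opposite directions were found at 186 of the 5268 loci (3.53%) after long exposure. With normexp background correction, which adds an offset and narrows ratios of dim spots, the brighter and the dimmer probe averaged -0.22 and 1.02 after long exposure and 1.20 and 0.87 after short exposure, the last of which was no longer 2-fold. The probe names give no sequence, so which transcripts each probe reads was not tested.

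**Figure D2:**
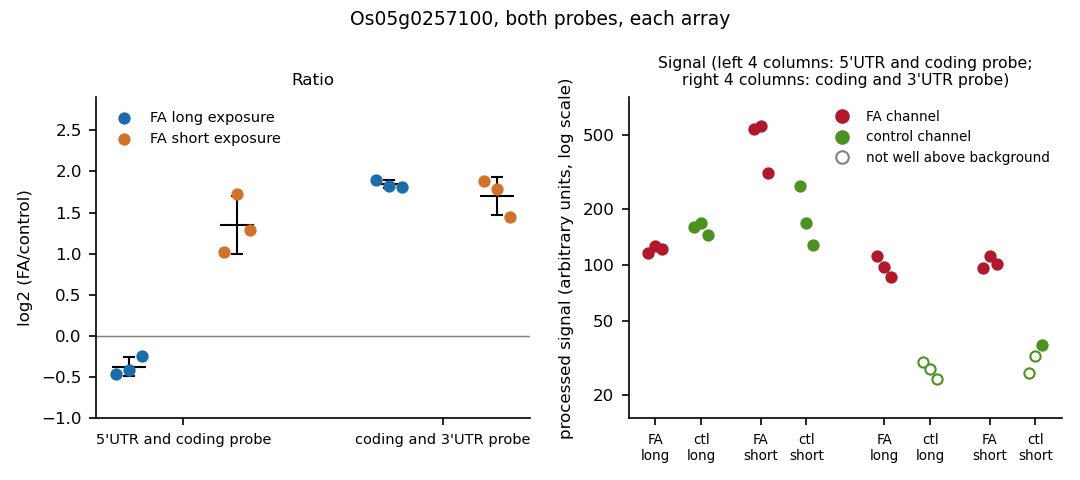
Os05g0257100 with its 2 probes. Left, log2 (FA/control) on each array with mean and SD (n = 3). Right, processed signal of FA and control (ctl) on a log scale, open circles marking spots not well above background. Probes are named by their labels. After long exposure the probe labelled 5' UTR and coding lies at -0.46 to -0.24 and the probe labelled coding and 3' UTR at 1.81 to 1.90.

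Os05g0261700, the second LRR-VIII-2 locus on chromosome 5, was higher in FA roots on all 6 arrays by its brighter probe. That probe is labelled coding sequence and 3' UTR. The signal was 177, 222 and 226 in FA roots and 126, 155 and 147 in control roots after long exposure. The short-exposure signal was 697, 562 and 622 in FA roots and 173, 114 and 194 in control roots. FA and control signals did not overlap in either exposure. The ratio averaged 0.55 ± 0.07 after long exposure (adjusted p = 0.00213, limma) and 2.00 ± 0.31 after short exposure (SD, n = 3 each), so the long-exposure change was in the same direction in 3 of 3 arrays but under 2-fold. The other probe of this locus, labelled 5' UTR and coding sequence, stayed near background in both channels on all 6 arrays. Its signals were 3.59 to 6.24 in FA roots and 4.57 to 8.55 in control roots.

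Both loci belong to a subfamily of 25 listed loci. After long exposure, 16 were tested and 0 were called in either direction by limma or the methods' t-test. An unadjusted p under 0.05 (limma) was found at 11 of them, beside 10477 of all 18666 tested loci. After short exposure, 17 were tested, with 16 at an unadjusted p under 0.05, beside 12431 of 19103 loci. Of the 17, 3 were called higher and 0 lower, beside 7.05% and 2.57% of all tested loci. Without the 2 members, which were chosen for large changes, 1 of 15 was called higher and 0 lower. The one besides the 2 members was Os08g0203100, at -0.19, 0.06 and -0.59 after long exposure and 1.58, 1.95 and 1.35 after short exposure (short-exposure adjusted p = 0.000242, limma). Its exposures did not overlap. The third locus of the subfamily with a neighbouring locus number, Os05g0256500, averaged -0.26 after long exposure and 0.39 after short exposure and was called in neither. It is named for its position, a choice made after its values were seen.

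Os07g0541400 codes for a DUF26-Ic receptor kinase, a cysteine-rich receptor type often studied in defence and oxidative stress. Its probe gave 86.7, 103 and 104 in FA roots and 85.2, 99.1 and 115 in control roots after long exposure. With short exposure the probe gave 219.96, 221 and 105 in FA roots and 46.3, 19.1 and 28.9 in control roots. FA and control signals overlapped after long exposure and were far apart after short exposure. The ratio was 0.03, 0.06 and -0.14 after long exposure (mean -0.02 ± 0.11, adjusted p = 0.833, limma) and 2.25, 3.53 and 1.86 after short exposure (mean 2.55 ± 0.87, SD, n = 3 each). The highest ratio, in replicate 2, came with a control signal not well above background, and with normexp the short-exposure mean was 1.47. The average intensity of both channels was brought to a common scale across arrays, with the ratios left as they were. On that scale the control channel of this probe was higher after long than after short exposure by 1.66 (log2), and the FA channel was lower (long minus short, -0.91). A control channel higher by 1 or more after long exposure was seen at 3.15% of 19616 loci, with a median of 0.00 over all of them. The part of slide, scan and sampling time in that difference cannot be told apart.

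With Os07g0541400 included, 8 of 8 listed DUF26-Ic loci with neighbouring numbers on chromosome 7 were tested after short exposure, and 5 were called higher and 0 lower. Over all tested loci, 7.05% were called higher and 2.57% lower. The member was chosen for a large change. In the whole DUF26-Ic subfamily without it, 4 of 8 tested loci were called higher and 0 lower. The largest change outside the member was that of Os07g0541000, which stood at 1.00, 1.10 and 1.09 after long exposure (adjusted p = 0.00068, limma) and at 1.94, 2.45 and 1.44 after short exposure (adjusted p = 0.000519). Of the 7 loci of the row tested after long exposure, member included, it was the only one called, beside 1.89% of all tested loci called higher. The other 3 called after short exposure were Os07g0537400, Os07g0537500 and Os07g0537600, with means of 1.50, 1.12 and 1.16, against 0.31, -0.10 and -0.42 after long exposure for the same loci in that order (named after their values were seen). Os07g0541700, at the end of the row of loci, averaged -0.08 after short exposure and was not tested after long exposure. Its short-exposure signals were not well above background in both channels on every array. Tandem copies of a receptor gene can share probe signal, which was not tested here because no probe sequence was used.

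Os05g0166300, an SD-2b receptor kinase, was lower in FA roots on all 6 arrays. Its probe, designed on an expressed sequence tag, gave 22.7, 28.2 and 38.8 in FA roots and 65.0, 42.5 and 110.2 in control roots after long exposure. After short exposure it gave 49.3, 6.45 and 8.50 in FA roots and 148, 66.4 and 65.6 in control roots. The FA signal was well above background on 2 of 3 long-exposure arrays and 1 of 3 short-exposure arrays, while the control signal was so on all 6. The ratio was -1.52, -0.59 and -1.51 after long exposure (mean -1.21 ± 0.53, SD, n = 3, adjusted p = 0.0044, limma) and -1.59, -3.36 and -2.95 after short exposure (mean -2.63 ± 0.93, SD, n = 3). The long-exposure call ended with normexp background correction, where the mean was -0.65, and with the methods' t-test (adjusted p = 0.145). Without replicate 3 the probe stayed below the signal of 100 needed for testing. With normexp the short-exposure mean was -0.89.

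Of 40 listed SD-2b loci, 16 were tested after long exposure and Os05g0166300 was the only one called, beside 0.611% of all tested loci called lower. After short exposure 17 were tested and 3 others were called higher (3 of 16 without the member), beside 7.05% of all tested loci. The one with the largest change, Os11g0168600, stood at 0.10, 0.24 and -0.38 after long exposure, where its signal was too low to be tested, and at 1.99, 1.44 and 2.22 after short exposure (adjusted p = 0.000301, limma). The short-exposure ratios of SD-2b loci thus ran from -2.63 at the member to 1.88, with a median of 0.38.

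Os03g0407900, an RLCK-VIIa kinase, belongs to the cytoplasmic group whose Arabidopsis members include PBS1 and BIK1, kinases of immune signalling. Its probe gave 71.6, 76.6 and 129 in FA roots and 45.7, 35.9 and 107 in control roots after long exposure. The short-exposure arrays gave 434, 377 and 405 in FA roots and 93.9, 70.3 and 52.9 in control roots. FA was the higher channel on all 6 arrays and every signal was well above background. After long exposure the ratio was 0.65, 1.09 and 0.27 (mean 0.67 ± 0.41, SD, n = 3, adjusted p = 0.0138, limma), and replicate 3, which had the smallest ratio, had the highest signal in both channels. After short exposure it was 2.21, 2.42 and 2.94 (mean 2.52 ± 0.37, SD, n = 3), a 5.75-fold mean ratio. Of 51 listed RLCK-VIIa loci, 36 were tested after long exposure and 0 were called by limma or by the methods' t-test. An unadjusted p under 0.05 (limma) was found at 16 of them, beside 10477 of all 18666 tested loci. After short exposure 37 were tested, 8 were called higher and 1 lower, or 7 and 1 of 36 without the member, beside 7.05% and 2.57% of all tested loci. The largest change outside the member was that of Os07g0686800. Its ratios were 0.57, 0.42 and 0.42 after long exposure, where it was not tested for low signal, and 1.94, 1.88 and 2.18 after short exposure. On all 6 arrays its control channel failed to rise well above background, so its short-exposure ratio, 3.99-fold on average, has no exact value. FA was the brighter channel, so the signal needed for testing was reached in the channel that rose, and no p is given.

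Os08g0374600, an RLCK-OS1 kinase, had the widest gap between FA and control of the 6 after short exposure. Its brighter probe is labelled 5' UTR and coding sequence. That probe gave 46.9, 58.0 and 162 in FA roots and 13.2, 62.6 and 145 in control roots after long exposure. On the short-exposure arrays it gave 986, 845 and 899 in FA roots and 7.81, 8.19 and 11.6 in control roots. All 3 control signals of short exposure were not well above background, so the fitted ratio has no exact value. Against a floor signal, FA was 58.0-fold higher. That floor was the lowest signal well above background on each array, or the probe's own control signal where that was higher. It was taken after average intensities were brought to a common scale across arrays. Some spots of other probes above that floor were not well above background, so 58.0-fold is no strict minimum. The deposited ratios were 6.98, 6.69 and 6.28 after short exposure (mean 6.65 ± 0.35, SD, n = 3), and the mean was 4.11 with normexp background correction. After long exposure the ratios were 1.83, -0.11 and 0.15 (mean 0.62 ± 1.05, SD, n = 3, adjusted p = 0.189, limma), with 2 arrays close to 0 and replicate 1, whose control signal was not well above background, apart from them. Without replicate 1 the mean was 0.02.

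The second probe of Os08g0374600, labelled coding sequence and 3' UTR, was dim throughout. Its signal was 7.15, 4.14 and 5.07 in FA roots and 8.31, 7.73 and 6.81 in control roots after long exposure, none of them well above background. After short exposure it was 25.8, 19.3 and 24.7 in FA roots and 8.26, 8.39 and 3.86 in control roots, with the FA signal well above background on 1 of 3 arrays. FA was the higher channel on all 3 short-exposure arrays. With FA itself well above background on 1 of them, no fold is given, and the probe was too dim to be tested. For the brighter probe, the control channel was well above background on 2 of 3 long-exposure arrays and 0 of 3 short-exposure arrays, so no exact difference between exposures can be given for it, while the FA channel, above background on all 6 arrays, was lower after long exposure on the common scale (long minus short, -3.68). Of the 7 listed RLCK-OS1 loci, 3 were tested after long exposure and 4 after short exposure, where Os08g0374600 and Os06g0151700 were called higher. Over all tested loci, 7.05% were called higher after short exposure. Without the member, 1 of 3 tested RLCK-OS1 loci was called higher and 0 lower. Os06g0151700 stood at -0.02, 0.53 and -0.01 after long exposure, below the signal needed for testing, and at 1.35, 1.55 and 1.59 after short exposure (adjusted p = 8.18e-05, limma).

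**Figure D3:**
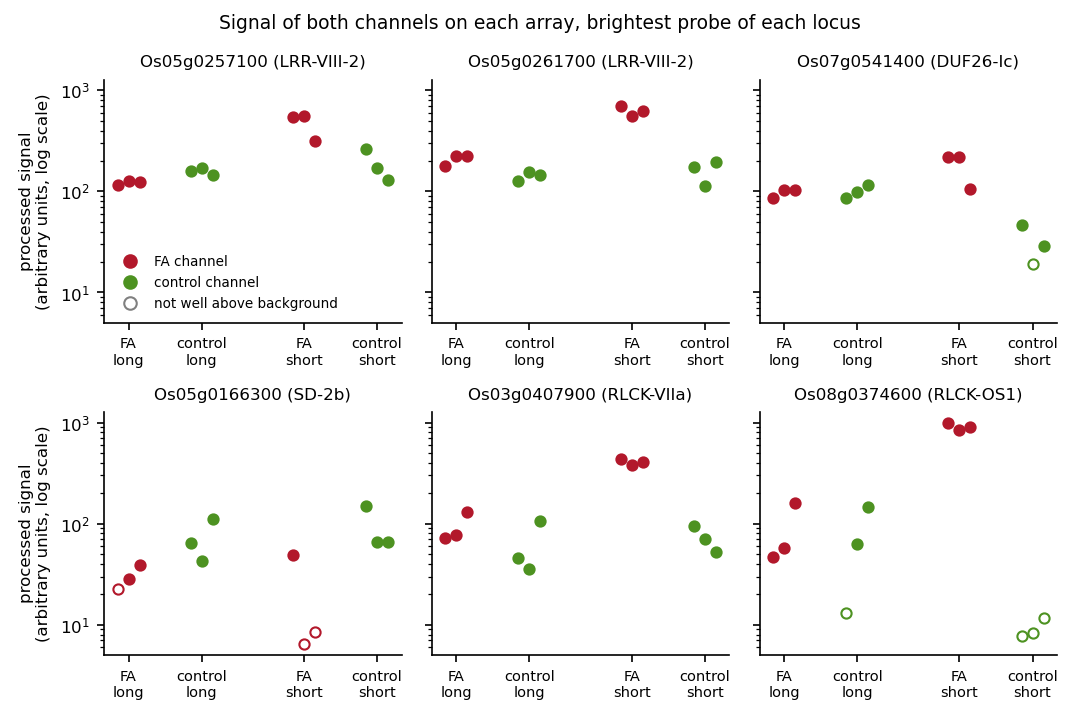
Processed signal of FA and control on each array for the brightest probe of each locus, on a log scale, with open circles for spots not well above background. The FA signal of Os08g0374600 is 845 to 986 after short exposure against control signals of 7.81 to 11.6, and the control signals of Os07g0541400 are 85.2 to 115 after long exposure and 19.1 to 46.3 after short exposure.

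Set against each other, the exposures differed for each of the 6 loci by its brightest probe. Long minus short, the mean log2 ratio differed by -1.72 for Os05g0257100, -1.45 for Os05g0261700, -2.57 for Os07g0541400, 1.43 for Os05g0166300, -1.85 for Os03g0407900 and -6.02 for Os08g0374600. The last value rests on short-exposure control signals not well above background and is not exact. With normexp it was -4.03, and that of Os07g0541400 was -1.45. All 6 passed the limits in the fit over 6 arrays, 5 as lower and 1 as higher after long exposure, beside 5.73% and 2.89% of 19616 loci. The difference rests on the short-exposure ratios that chose the loci, so it is a description and nothing is read from that share. For Os05g0166300 the long-minus-short difference no longer passed without long-exposure replicate 2 (1.12), without short-exposure replicate 2 (1.06), without short-exposure replicate 3 (1.27), with normexp background correction (0.24) or with no signal filter (1.43, adjusted p = 0.156, limma). For Os05g0257100 it was -1.72 on the brighter probe and 0.14 on the other, where the exposures overlapped, and the median of both probes (-0.79) fell short of 2-fold. The drop in ratio after long exposure lay mostly in the FA channel for Os05g0257100 (brighter probe), Os05g0261700 and Os03g0407900: on the common scale the FA channel differed by -2.03, -1.72 and -2.29 for these loci in that order, and the control channel by -0.31, -0.27 and -0.44.

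Among the receptor-like kinases as a whole, the loci described here were not all at the top. Of 402 receptor-like kinase loci tested after short exposure, 371 were well above background in both channels on all 3 arrays. By increase among these, Os03g0407900 ranked 2, Os05g0261700 ranked 5 and Os05g0257100 ranked 19, and Os05g0257100 was 3 in its subfamily by size of change. The other 3 loci had a channel near background and were not ranked. Over all 402 loci, 51 were called higher and 21 lower (12.7% and 5.22%), beside 7.05% and 2.57% of all tested loci. Without the 6, the counts were 46 and 20 of 396. With normexp and the 6 included, the split over the 402 was 41 higher and 5 lower. The median ratio of the 402 was -0.03, beside -0.09 over all tested loci. After long exposure 2 of 395 were called higher and 7 lower (0.506% and 1.77%), beside 1.89% and 0.611% of all tested loci. Their median was 0.00, beside -0.03 over all tested loci. The split was 12 higher and 11 lower of 816 with no signal filter, 4 and 5 without long-exposure replicate 3, and 3 and 12 without replicate 2, when 15 were called in place of 9. The 2 called higher were Os07g0541000 and Os10g0533800, a lectin-type (L-LEC) kinase with ratios of 2.01, 0.10 and 2.01 (adjusted p = 0.0256, limma) and a control channel well above background on 1 of 3 arrays. Among the 374 loci well above background in both channels on all 3 arrays, Os07g0541000 ranked 1 by increase. The largest decrease was that of Os12g0614800, of the wall-associated kinase group WAKa, with ratios of -1.34, -1.94 and -3.26 after long exposure (adjusted p = 0.00421, limma) and 0.40, 0.69 and -0.37 after short exposure, where it was not tested for low signal. In long minus short, 54 of 422 loci were called lower and 19 higher (12.8% and 4.5%), beside 5.73% and 2.89% of all tested loci. With normexp 34 were called lower and 5 higher.

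**Figure D4:**
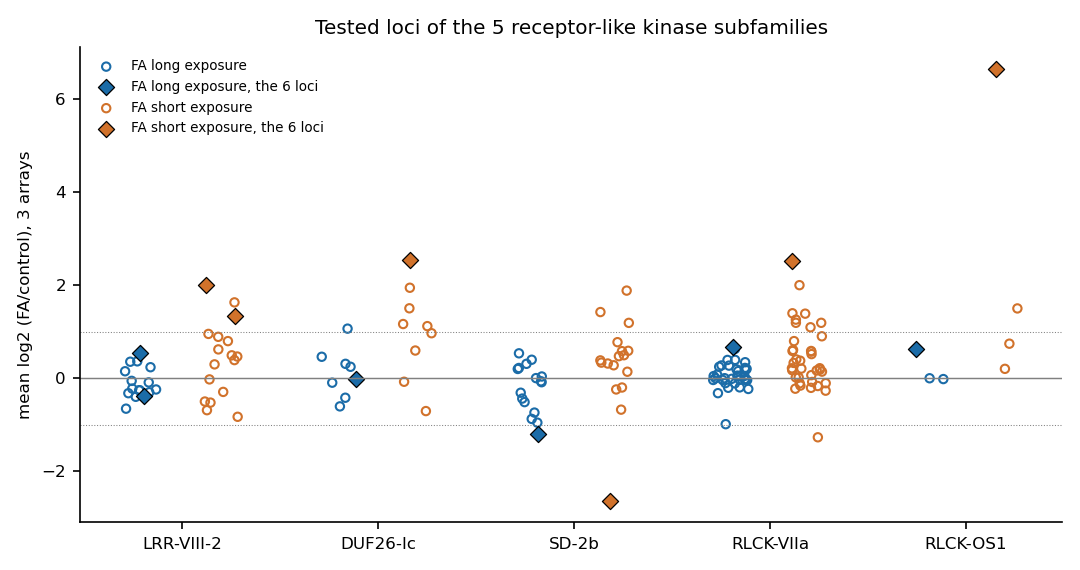
Mean log2 (FA/control) of 3 arrays for every tested locus of the 5 subfamilies, long exposure left of short exposure, with the 6 loci as filled diamonds and dotted lines at 1 and -1. After long exposure Os07g0541000 (DUF26-Ic, 1.06) and Os05g0166300 (SD-2b, -1.21) lie beyond the dotted lines.

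The loci whose brightest probe followed that of a member most closely were sought among 18721 loci with a value on all 6 arrays, by the root mean square (RMS) difference in log2 ratio. None of the 12 nearest was a receptor-like kinase of the list, whose loci were 422 of the 19616 tested in long minus short. For Os05g0257100 they were Os02g0120100 (RMS difference 0.13), listed in the kinase table as a Raf-type kinase with an ACT domain, and Os01g0505400 (0.15). For Os05g0261700 they were Os08g0101500 (0.17) and Os03g0673700 (0.17). For Os07g0541400 they were Os06g0210000 (0.24) and Os02g0562600 (0.41), and for Os03g0407900 Os10g0139700 (0.27) and Os01g0186900 (0.28). The nearest patterns of Os05g0166300 were farther off, with Os09g0287000 (0.72), listed as an AP2/ERF transcription factor, and Os01g0800500 (0.72), as were those of Os08g0374600, with Os04g0447700 (0.94) and Os08g0137900 (0.95). The control channel was well above background on 0 of 6 arrays for Os10g0139700 and Os04g0447700, 1 of 6 for Os06g0210000 and 2 of 6 for Os08g0137900, and the FA channel on 4 of 6 for Os10g0139700, Os06g0210000, Os09g0287000 and Os01g0800500, so the ratios of these loci, and their RMS differences, hold signals near background and their order is not exact. Among the members themselves the closest pair was Os05g0261700 and Os03g0407900, with an RMS difference of 0.59, and the LRR-VIII-2 pair stood 0.82 apart. All these patterns share the same 6 arrays and no test was made on them.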

How the data were processed

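Two-colour arrays compared RNA of FA-treated roots (red) with water-control roots (green) in 3 biological replicates per exposure. The RNA came from root tips of seedlings grown in the dark. The authors' scanner software (Feature Extraction 10.7.1.1 per the file headers) subtracted background and corrected dyes, and the deposited files hold processed signals as intensity values and, per spot, the log10 ratio of red over green. A spot with neither channel above background has a ratio of exactly 0 from that software. The deposited value table holds log2 ratios of the same arrays, equal to those of the processed signals and with no further centring.

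Here ratios were put on the log2 scale, outlier spots (78 to 1062 per array) and control spots were dropped, and spots of a probe were averaged. A probe was tested if either channel reached a processed signal of 100 on 1 or more arrays, with a ratio on at least 2 arrays (of each exposure, for long minus short). Within each exposure, 27068 (long) and 27773 (short) probes were tested against 0 in limma 3.58.1 (functions lmFit and eBayes; R 4.3.3), and 28357 for long minus short. The fold against a floor and the channel differences between exposures used per-channel signals after the software's normalization and Aquantile. The latter acts on average intensity and keeps ratios. Kinase subfamilies were taken from the study's kinase table (827 loci), whose descriptions were used where another supplementary list differed. Named genes were the 6 members with every probe, per subfamily the non-member with the largest called change, per member the 2 loci with the closest ratios, and the receptor-like kinase with the largest change each way per exposure. The members and lists were chosen with earlier results of these data known. The procedure was tested on simulated data before use. Alternatives were normexp (offset 50) with loess, centring, the value table, other signal filters, leave-one-out, 1 fit of all arrays, the methods' t-test, the slide or replicate number as a block, and the median of a locus's probes. Replicates were separate biological samples. Only 3 arrays per exposure limit the precision, and an exact sign test on 3 arrays cannot go below p = 0.25.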

Additional observations from a re-analysis of the deposited data

Results flagged for a closer look

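The ratio of FA to control passed the limits for a difference between exposures in the fit of the difference itself for the brightest probe of each of the 6 loci. The other tested probe, of Os05g0257100, did not pass, at 0.14. On the log2 scale, long minus short was -2.57 for Os07g0541400, -1.45 for Os05g0261700, -1.72 for Os05g0257100, -1.85 for Os03g0407900, -6.02 for Os08g0374600 and 1.43 for Os05g0166300. The loci were chosen on these arrays, each exposure lay on slides of its own, and the value of Os08g0374600 rests on short-exposure control signals not well above background.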

How the results depend on the processing

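The 6 loci kept the direction of every call under the alternatives run, while the uncalled long-exposure ratio of Os05g0257100 became 0.74 with the median of its 2 probes. With normexp and loess, 5 receptor-like kinase loci were called after long exposure (9 as reported), 46 after short exposure (72) and 39 in long minus short (73). Without a signal filter, 23 of 816 tested loci were called after long exposure (9 of 395 as reported) and 111 of 821 after short exposure (72 of 402). With a signal of 100 on every array, 43 of 324 were called in long minus short, and with the methods' t-test 5 of 395 after long exposure. Leave-one-out gave 9 to 15 after long exposure. Of the 6 loci, 1 was called after long exposure, and 0 with normexp, with no filter, with 100 on every array (2 tested), with both channels above background on every array (4 tested) and with the methods' t-test, and 0 to 1 on leave-one-out, the 0 without replicate 3, when 3 were tested. With both channels above background on every array, 3 of 3 tested loci were called after short exposure and 3 of 3 in long minus short, where 100 on every array left 2 of 2. The replicate block, run for long minus short only, gave 74 receptor-like kinase loci and all 6 members. Deviations of same-numbered arrays correlated at -0.08, -0.01 and 0.14, so the numbers were not taken as pairs. The slide as a random block could be fitted for long minus short only, where it gave 75. Among values of single probes of the 6 loci, 62 stayed on their side of the limits and 3 lost the call after long exposure, 68 and 2 after short exposure, and 84 and 5 in long minus short. Signals near background limit Os08g0374600, Os07g0541400 and Os05g0166300.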
